A study of Mus musculus with 15 samples.

Results

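The genes described here encode integrins, syndecans and the proteins that link them to the actin skeleton. They were measured in NIH3T3 mouse fibroblasts made to express Runx transcription factors. The set was chosen by name: 38 listed symbols, each represented by the brightest, on average across arrays, of the probe sets annotated to it. 35 of the 38 were measured, among 18193 genes in all. They were 11 integrin alpha subunits, 8 beta subunits, all 4 syndecans, 10 adaptors or kinases of the adhesion site, and the membrane organisers Cav1 and Cd151. Itga11, Ptk2 and Nedd9 had no probe set under these symbols in the annotation used and were not analysed here. The 35 genes had 92 probe sets between them.

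Integrins are receptors made of an alpha and a beta chain that bind extracellular matrix outside the cell and recruit talin, kindlin, paxillin and other adaptors inside it, where focal adhesions form. The pairing sets the ligand: alpha 6 chains make laminin receptors, while alpha v pairs with several beta chains, beta 5 among them, into receptors for vitronectin and other RGD-containing ligands. Syndecans are transmembrane proteoglycans whose heparan sulfate chains bind matrix and growth factors, and syndecan 4 is a co-receptor of integrins in fibroblast focal adhesions. Runx proteins bind DNA through the Runt domain, and Runx1, Runx2 and Runx3 share the core recognition letters TGTGGT and TGCGGT.

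All cells were NIH3T3, an established mouse embryonic fibroblast line, transduced with retroviral pBabe-puro, and the 15 arrays fall into 8 groups. Arrays were duplicates of empty-vector cells, of empty-vector cells given 4-hydroxytamoxifen (4-OHT, also called tamoxifen in the labels), of cells with constitutive mouse Runx1, mouse Runx2 or mouse Runx3, and of cells with inducible human RUNX1 (RUNX1-ER) either uninduced or induced with tamoxifen. A constitutive human RUNX1 line had 1 array. Cultures reached confluence over 7 days and received 0.2% ethanol, with or without 4-OHT (0.1 mM as the labels write it), for 24 h. The labels do not say which of these the constitutive lines received, so the vector arrays with 4-OHT served as alternative controls. The labels call duplicates biological but name no separate transductions or cultures. The p-values therefore measure the spread between these arrays, which may be partly technical, and each line may hold effects of its own transduction.

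Of the 35 measured genes, 26 had a RefSeq transcription start (GRCm38.p6) for which the preceding 250 bases were read. Either recognition sequence, on either strand, occurred in the windows of 5 of these 26 genes (19.2%): Itga3, Itga4, Itga8, Tln1 and Ilk. Over all 27025 genes of the same table, 5656 (20.9%) had a match. Among genes that passed the test in any comparison described below, 1 of the 8 with a window had a match, against 4 of 18 genes that passed in none. The windows of the members that moved most, Sdc1, Itgb5 and Sdc4, are printed with that of Itga3, the called member that held a match. Itga6 had no entry. Each reads 5′ to 3′ toward the start. Capitals mark TGTGGT or TGCGGT and the GC box GGGCGG, each on either strand. The GC box was marked after the letters had been seen, and it occurred in 10756 of all 32851 windows (32.7%).
Sdc1, chr12:8771146-8771395, plus strand: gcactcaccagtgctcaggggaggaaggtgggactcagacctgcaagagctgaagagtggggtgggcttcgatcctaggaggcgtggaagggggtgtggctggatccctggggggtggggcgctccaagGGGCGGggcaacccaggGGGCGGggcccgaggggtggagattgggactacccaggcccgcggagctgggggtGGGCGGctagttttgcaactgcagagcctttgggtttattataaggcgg
Itgb5, chr16:33829415-33829664, plus strand: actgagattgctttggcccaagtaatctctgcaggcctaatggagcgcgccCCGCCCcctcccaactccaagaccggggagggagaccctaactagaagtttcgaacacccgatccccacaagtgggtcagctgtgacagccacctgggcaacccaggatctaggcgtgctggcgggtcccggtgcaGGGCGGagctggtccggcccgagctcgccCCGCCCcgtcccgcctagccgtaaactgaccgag
Sdc4, chr2:164443189-164443438, minus strand: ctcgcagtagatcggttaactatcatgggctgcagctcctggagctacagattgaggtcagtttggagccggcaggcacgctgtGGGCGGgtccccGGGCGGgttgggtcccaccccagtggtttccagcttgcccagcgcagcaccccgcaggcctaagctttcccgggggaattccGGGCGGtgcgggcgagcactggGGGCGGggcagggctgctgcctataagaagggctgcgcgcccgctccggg
Itga3, chr11:95069199-95069448, minus strand: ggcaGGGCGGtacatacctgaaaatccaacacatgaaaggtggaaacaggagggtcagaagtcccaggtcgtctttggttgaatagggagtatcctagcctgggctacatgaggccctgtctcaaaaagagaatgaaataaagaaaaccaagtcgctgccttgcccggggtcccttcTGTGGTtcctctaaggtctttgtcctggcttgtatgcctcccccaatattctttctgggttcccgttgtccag
The Sdc1 and Itgb5 windows held 3 GC boxes each and the Sdc4 window held 4, none with a Runx sequence. Among members not called, the Fermt2 window held 5 GC boxes and those of Sdc3 and Tns1 held 3 each, while some held none. The Itga3 window held 1 GC box and TGTGGT, which began 73 bases before the start. The other RefSeq start of Itga3 lies upstream of this one on the minus strand. Its window (chr11:95076715-95076964) had no Runx match and 3 GC boxes. No binding was measured in this study.

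The arrays had medians over all probe sets of 3.69 to 3.75 log2 units, a closeness that the RMA normalisation imposes. Of 10 fibroblast markers, 9 stood above 5 log2 units on every array. None of 6 epithelial, 5 measured leukocyte or 5 endothelial markers did, and none of those passed the test in the Runx1, Runx2 or Runx3 lines or on RUNX1-ER induction. The mean fibroblast marker level ranged from 10.2 to 10.5 over the arrays. In the Runx3 line 5 of its 10 genes passed the test, 2 higher and 3 lower, with 9.37% of all genes called. Of the same 10 genes 2 passed in the Runx1 line (1.70% of all genes) and 2 in the Runx2 line (2.57%). On RUNX1-ER induction 2 passed (1.92%). Whether those changes bear on the adhesion genes was not tested. Array values do not distinguish less RNA per cell from fewer cells of a type.

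Levels of the adhesion genes divided the set. A total of 13 members stayed under 5 log2 units in every group, where a probe set may read little beyond background: Itga1, Itga2, Itga4, Itga7, Itga8, Itga9 and Itga10, Itgb2, Itgb3, Itgb4, Itgb6 and Itgb8, and Lims2. These included Itga1, Itga2 and Itga10, the measured alpha chains of collagen receptors, and the leukocyte beta 2 chain. The other 22 were 4 alpha chains (Itga3, Itga5, Itga6, Itgav), 3 beta chains (Itgb1, Itgb5, Itgb7), all 4 syndecans, 9 of the 10 adaptors and kinases, and both membrane organisers. Levels of different probe sets were not compared with each other, because hybridisation differs between probes.

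**Figure D1:**
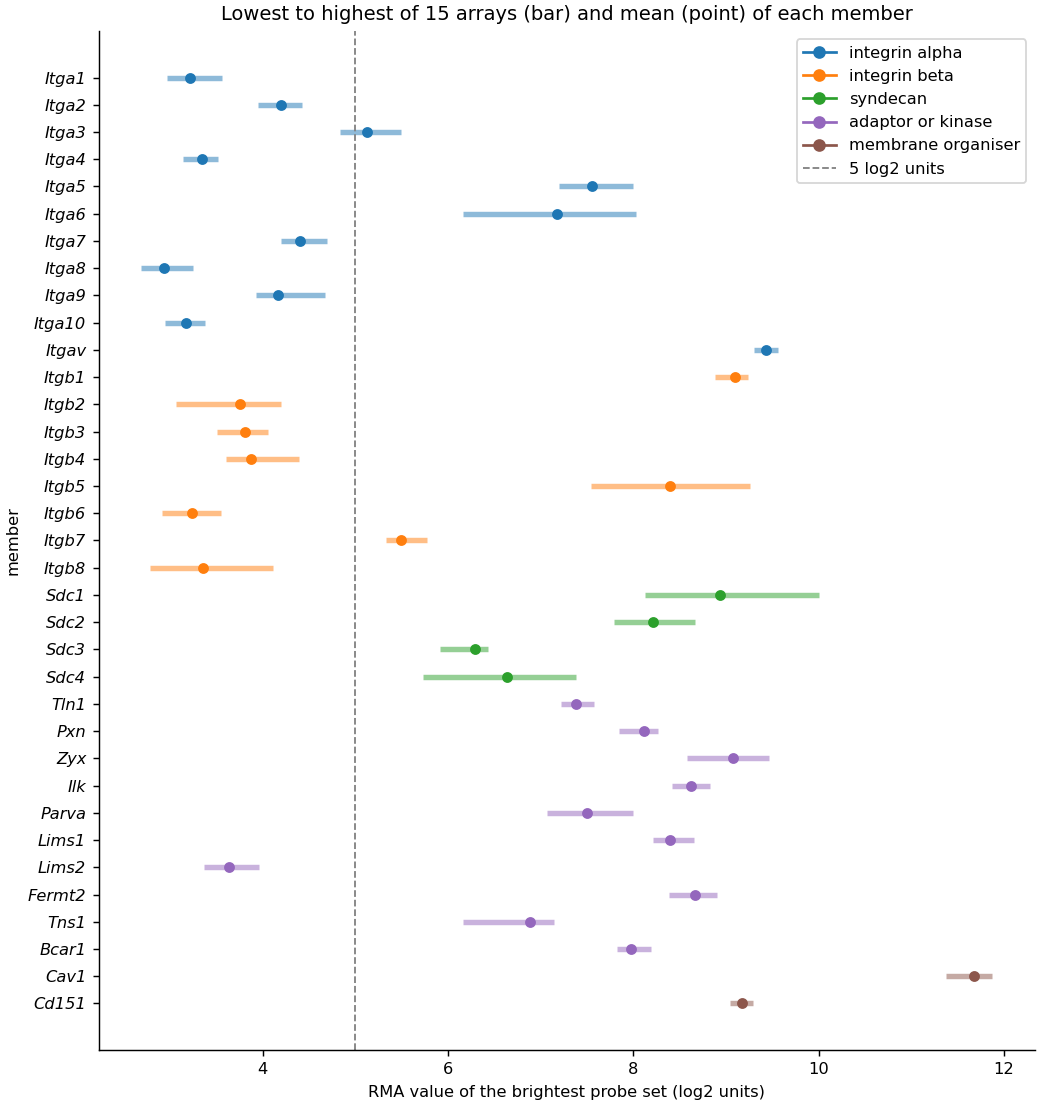
RMA values in log2 units (x axis) of the brightest probe set of each of the 35 measured members (y axis), coloured by role, with a bar from the lowest to the highest of 15 arrays and a point at the mean; the dashed line marks 5 log2 units. Sdc1, Itgb5, Itga6 and Sdc4 have the widest bars to the right of the line, while Itgav and Cd151 each spanned less than 0.3 log2 units.

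Across all comparisons 10 of the 35 members passed the test, which was limma with Benjamini-Hochberg adjustment over 18193 genes at an adjusted p under 0.05. They were Itga3, Itga6, Itga9, Itgb5, Itgb8, Sdc1, Sdc2, Sdc4, Zyx and Cav1. The share of all genes called in any comparison is not given here, so this pooled count has no background beside it. Against vector cells, Sdc1 and Itgb5 rose in the Runx1 line, 5.71% of the members against 1.70% of all genes. In the Runx2 line Sdc1 and Itgb5 rose and Itga6 fell, 8.57% against 2.57% of all genes. In the Runx3 line Sdc1, Itgb5 and Itga3 rose and Itga6, Sdc4, Sdc2, Cav1, Zyx and Itgb8 fell, 25.7% against 9.37% of all genes. The average of the 3 lines called 5 members, 2 higher (Sdc1, Itgb5) and 3 lower (Itga6, Sdc4, Cav1), 14.3% against 4.73% of all genes. These comparisons share the same vector arrays, so their calls are not independent of each other. In the Runx3 line the count was 5 without vector replicate 1, vector replicate 2 or Runx3 replicate 2. In the Runx1 line it was 0 with vector replicate 1, vector replicate 2 or Runx1 replicate 2 left out and 1 with Runx1 replicate 1 left out. In the average it was 3 without vector replicate 2 or Runx2 replicate 2. In the Runx1 and Runx3 lines the share of all genes called fell too with each of these arrays left out. In the average that share fell without vector replicate 2 and was unchanged without Runx2 replicate 2. With the 4-OHT vector arrays as controls Sdc4 and Cav1 were called lower in the Runx2 line as well, 5 members in all. The share of all genes called there was 3.15% with these controls.

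When only the 8048 genes with a mean of at least 5 log2 units over all arrays were tested, 9 of the 22 members that remained were called in the Runx3 line (40.9%), against 25.8% of all such genes. In the Runx2 line the shares were 18.2% and 8%, and in the Runx1 line 9.09% and 5.45%. That test added Cav1 in the Runx2 line and Fermt2 in the Runx3 line, and Itgb8 was too dim to enter it. The median difference of the members from vector was 0.05 in the Runx1 line, 0.02 in the Runx2 line and −0.07 in the Runx3 line, against −0.01, −0.01 and 0.00 over all genes. Members that rose and members that fell stood side by side in the Runx2 and Runx3 lines.

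**Figure D2:**
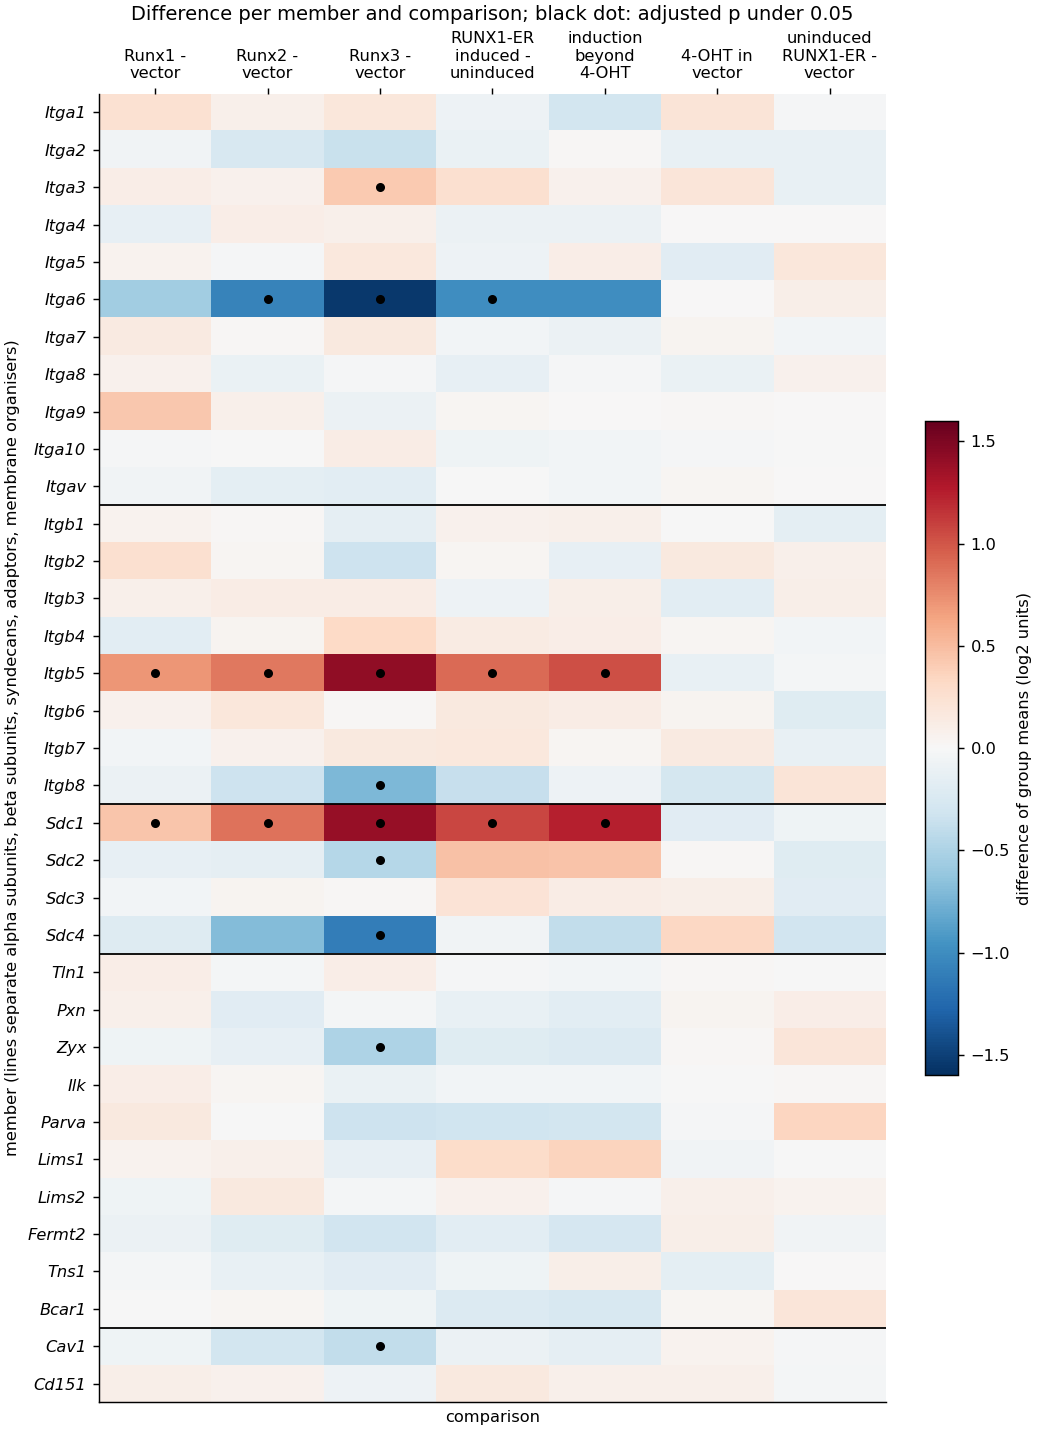
Differences of group means in log2 units (colour, red higher and blue lower) for the 35 measured members (y axis, grouped by role) in 7 comparisons (x axis); a black dot marks an adjusted p under 0.05. Sdc1 and Itgb5 are red with dots in the 3 mouse lines and on RUNX1-ER induction, Itga6 is blue with dots in all of these but the Runx1 line, and the 4-OHT and uninduced columns hold no dot.

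Of the 4 syndecans 3 were called in the Runx3 line, and they moved in opposite directions. Sdc1, which encodes syndecan 1, a heparan sulfate proteoglycan best known from epithelial cells and plasma cells, read 8.37 on both vector arrays. It read 8.81 on both Runx1 arrays, 9.13 and 9.34 in the Runx2 line, and 9.72 and 9.82 in the Runx3 line. The groups did not overlap, and their order was vector, Runx1, Runx2, Runx3. Sdc1 rose by 0.44 log2 units in the Runx1 line (SE 0.09; limma adjusted p = 0.0289), by 0.87 in Runx2 cells (adjusted p = 0.000179), and in Runx3 cells by 1.40 (2.64-fold; adjusted p = 8.92e-07). The Runx2 and Runx3 calls held under every alternative run. The Runx1 call did not: leaving out vector replicate 1 or 2 gave an adjusted p of 0.179 or 0.186, and leaving out Runx1 replicate 1 or 2 gave 0.152 or 0.176. Sdc1 has 3 further probe sets, and each was higher in all 3 lines. In the Runx3 line all 3 passed the test, at 1.66 to 1.76 log2 units, and in the Runx1 line 1 of 3 did, at 0.54 to 0.64.

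Sdc4 encodes syndecan 4, the syndecan of focal adhesions. It read 6.72 and 7.23 on the vector arrays, 7.10 and 6.43 in the Runx1 line, 6.33 and 6.23 in the Runx2 line, and 5.73 and 6.00 in the Runx3 line. The Runx2 and Runx3 arrays all lay below both vector arrays, while the Runx1 arrays straddled the lower of them. Sdc4 fell by 1.11 log2 units in the Runx3 line (SE 0.20; limma adjusted p = 0.00279), a call that every alternative kept. Its differences were −0.69 in the Runx2 line (adjusted p = 0.107) and −0.21 in the Runx1 line (adjusted p = 0.855), neither called. In the average of the 3 lines it fell by 0.67 log2 units (adjusted p = 0.0319). That call was lost without vector replicate 2 (−0.41; adjusted p = 0.467), Runx2 replicate 2 (adjusted p = 0.0561) or Runx3 replicate 1 (adjusted p = 0.0674), and with the mean of both Sdc4 probe sets (−0.41; adjusted p = 0.0825). The dimmer probe set differed by −0.25 in the Runx3 line and was not called, so the size of the fall depends on the probe set.

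Sdc2, the syndecan of mesenchymal cells, read 8.25 and 8.39 on the vector arrays and 7.93 and 7.79 in the Runx3 line, with 8.20 and 8.17 in the Runx1 line and 8.14 and 8.20 in the Runx2 line. It fell by 0.46 log2 units in the Runx3 line (SE 0.13; limma adjusted p = 0.0423), and 2 of its 3 other probe sets were called lower too. The call was lost with any of 4 arrays left out, at an adjusted p of 0.102 (vector replicate 1), 0.252 (vector replicate 2), 0.0810 (Runx3 replicate 1) and 0.244 (Runx3 replicate 2). It was also lost without any 1 of 8 arrays outside the comparison (4-OHT vector, induced RUNX1-ER, Runx1 and Runx2), which share its estimate of the spread. Sdc3, more abundant in neural tissue, lay between 5.91 and 6.44 on all 15 arrays. Its differences in the 3 lines spanned −0.04 to 0.05 and it was called in no comparison.

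**Figure D3:**
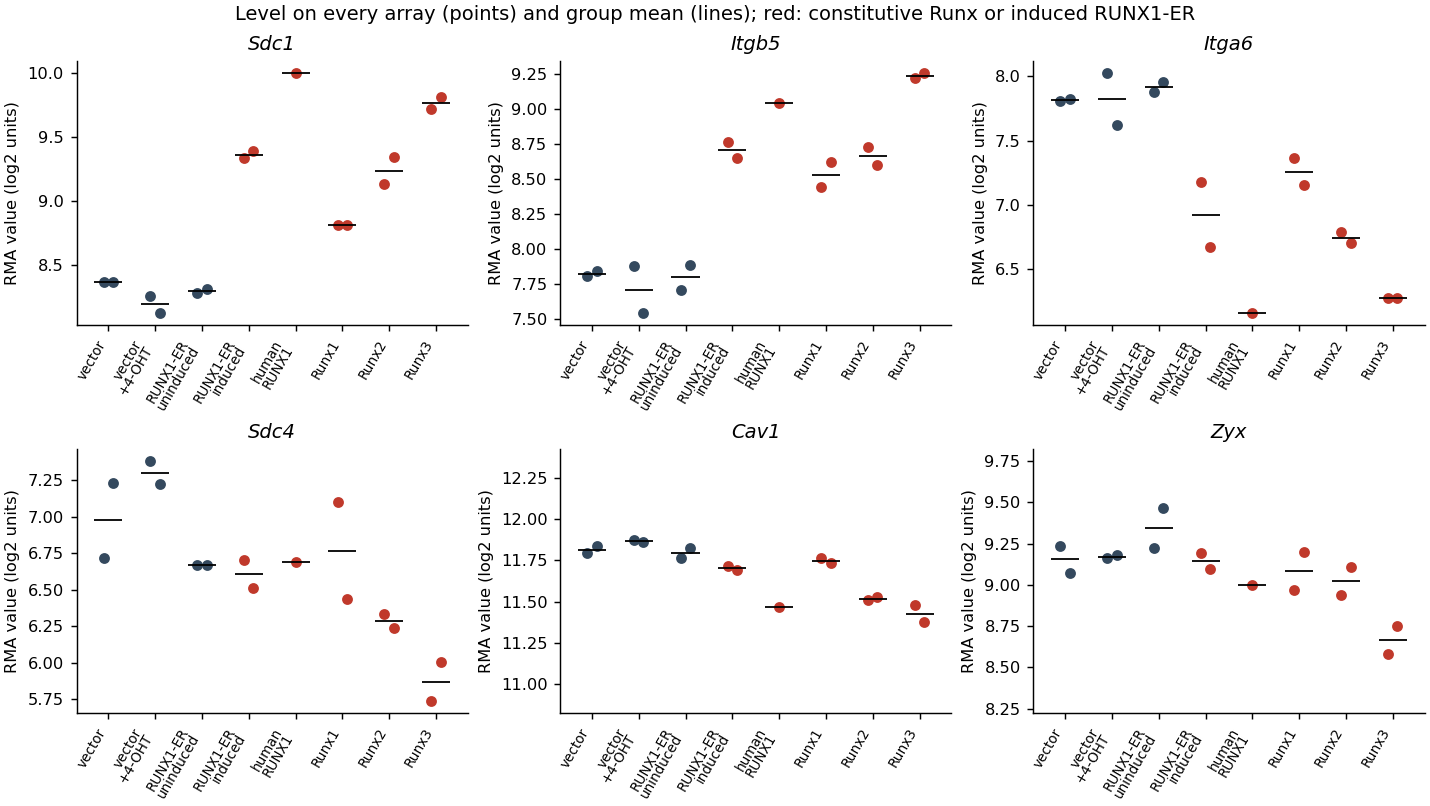
RMA values in log2 units (y axis) of 6 members on all 15 arrays by group (x axis); points are arrays, short lines are group means, and each panel has its own range. Sdc1 and Itgb5 stand higher and Itga6 lower on all constitutive Runx and induced RUNX1-ER arrays (red) than on the control and uninduced arrays (dark), while Sdc4, Cav1 and Zyx are lowest in the Runx3 line.

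Among beta chains, Itgb5 was the member with a large change. It encodes integrin beta 5, which pairs with alpha v. Itgb5 read 7.81 and 7.84 on the vector arrays, 8.44 and 8.62 in the Runx1 line, 8.73 and 8.61 in the Runx2 line and 9.22 and 9.26 in the Runx3 line. All 6 Runx arrays lay above both vector arrays. The Runx1 and Runx2 arrays overlapped, and both Runx3 arrays lay above them. Itgb5 rose by 0.71 log2 units in the Runx1 line (SE 0.12; limma adjusted p = 0.00654), by 0.84 in Runx2 cells (adjusted p = 0.00146), and in Runx3 cells by 1.41 (2.66-fold; adjusted p = 5.35e-06). The calls in the Runx2 and Runx3 lines held under every alternative. The call in the Runx1 line ended without vector replicate 1 (adjusted p = 0.0711), vector replicate 2 (adjusted p = 0.0598) or Runx1 replicate 2 (adjusted p = 0.101). The 3 other Itgb5 probe sets were called higher in each of the 3 lines, at 0.58 to 0.75, 0.86 to 0.97 and 1.32 to 1.44 log2 units. Itgav, the alpha chain that pairs with beta 5, ranged from 9.31 to 9.56 over all 15 arrays. Its differences in the 3 lines were −0.06, −0.16 and −0.17, with an adjusted p of 0.351 in the Runx3 line. A dimmer Itgav probe set differed by −0.63 in the Runx3 line, with an adjusted p of 0.146 in the fit over all 45037 probe sets.

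Itgb1, the common partner of the matrix-binding alpha chains, ranged from 8.89 to 9.24 log2 units and was called in no comparison. Its differences in the 3 lines were between −0.15 and 0.05. Itgb8, whose product pairs with alpha v, read 3.57 and 3.58 on the vector arrays and 2.79 and 2.92 in the Runx3 line. It fell by 0.72 log2 units (SE 0.19; limma adjusted p = 0.0306), at levels that lie near or under the lower quartile of each array (3.21 to 3.25). Every left-out array ended the call, at an adjusted p of 0.139 (vector replicate 1), 0.142 (vector replicate 2), 0.156 (Runx3 replicate 1) and 0.0901 (Runx3 replicate 2). With the 4-OHT vector arrays as controls the difference was −0.43 (adjusted p = 0.187). Itgb7, a chain known from leukocytes, spanned 5.33 to 5.77 and was not called.

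Among alpha chains, Itga6 fell most. It encodes integrin alpha 6, a laminin receptor chain that pairs with beta 1 or beta 4. Itga6 read 7.81 and 7.82 on the vector arrays, 7.37 and 7.15 in the Runx1 line, 6.79 and 6.70 in the Runx2 line, and 6.27 on both Runx3 arrays. The groups did not overlap, and their order was the reverse of that for Sdc1. Itga6 fell by 1.07 log2 units in Runx2 cells (SE 0.16; limma adjusted p = 0.00201), and in Runx3 cells it fell by 1.54 (2.91-fold lower; adjusted p = 3.10e-05), and every alternative kept both calls. The difference in the Runx1 line was −0.56 and missed the threshold (adjusted p = 0.129). There the mean of both Itga6 probe sets (−0.56; adjusted p = 0.0244) or a trended and robust variance prior (adjusted p = 0.0242) brought it under. The other Itga6 probe set differed by −0.56, −1.23 and −1.55 log2 units in the Runx1, Runx2 and Runx3 lines. It was called lower in each of them, with a limma adjusted p of 0.0349 in the Runx1 line in the fit over all probe sets.

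Itga3, another laminin receptor chain, read 5.02 and 4.99 on the vector arrays and 5.36 and 5.49 in the Runx3 line. It rose by 0.42 log2 units there (SE 0.09; limma adjusted p = 0.0130), and 1 of its 2 other probe sets was called higher too. The 4-OHT vector arrays read 5.16 and 5.23, and with them as controls the difference was 0.23 (adjusted p = 0.161). The call also ended without vector replicate 1 (adjusted p = 0.0698), vector replicate 2 (adjusted p = 0.0912) or Runx3 replicate 2 (adjusted p = 0.122). Itga3 is the called gene whose printed window, at the downstream one of its RefSeq starts, holds TGTGGT. Itga5, the fibronectin receptor chain, ranged from 7.20 to 8.0 and differed by −0.02 to 0.17 in the 3 lines. Itga9, under 5 log2 units everywhere, read 4.02 and 4.10 on the vector arrays, 4.31 and 4.68 in the Runx1 line and 3.98 and 3.97 in the Runx3 line, and was called in no comparison with vector.

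Of the 10 measured adaptors and kinases 1 was called. Zyx encodes zyxin, a LIM protein of mature, tension-bearing adhesions. It read 9.23 and 9.07 on the vector arrays, 8.97 and 9.20 in the Runx1 line, 8.94 and 9.11 in the Runx2 line, and 8.58 and 8.75 in the Runx3 line. Zyx fell by 0.49 log2 units in the Runx3 line (SE 0.12; limma adjusted p = 0.0189), where both arrays lay below those of every other group. The call ended without vector replicate 1 (adjusted p = 0.167) or Runx3 replicate 1 (adjusted p = 0.141), and the dimmer Zyx probe set differed by −0.24 and was not called. None of the other 9 was called in any comparison. Tln1 (talin 1, which activates integrins) ranged from 7.22 to 7.58 log2 units over the arrays. Fermt2 (kindlin 2, its partner) ranged from 8.39 to 8.91, Pxn (paxillin, a scaffold) from 7.85 to 8.27, and Bcar1 (p130Cas, a docking protein) from 7.83 to 8.19. Of the complex of integrin-linked kinase, PINCH and parvin, Ilk ranged from 8.42 to 8.82, Lims1 from 8.21 to 8.66 and Parva from 7.07 to 8.0. The difference of Fermt2 in the Runx3 line was −0.31 (adjusted p = 0.0658), and it passed when dim genes were left out of the test (adjusted p = 0.0209). Parva had probe sets that disagreed: in the Runx3 line the brighter differed by −0.33 (adjusted p = 0.183), and the dimmer by −0.64 (adjusted p = 0.00297 in the fit over all probe sets). Between the Runx3 and Runx1 lines Parva differed by −0.49 and just missed the threshold (adjusted p = 0.0508), and with the mean of its probe sets it fell by 0.55 (adjusted p = 0.000534). Lims1 differed by 0.35 in induced RUNX1-ER cells against vector with 4-OHT (adjusted p = 0.0562), and it passed when dim genes were left out of the test (adjusted p = 0.0174). Tensin 1 (Tns1) differed by −0.18 to −0.03 in the 3 lines.

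Of the membrane organisers, Cav1 fell. It encodes caveolin 1, the coat protein of caveolae. It read 11.79 and 11.84 on the vector arrays, 11.76 and 11.73 in the Runx1 line, 11.51 and 11.53 in the Runx2 line and 11.48 and 11.37 in the Runx3 line. Every Runx2 and Runx3 array lay below every vector and Runx1 array. Cav1 fell by 0.39 log2 units in the Runx3 line (SE 0.08; limma adjusted p = 0.00693), and it differed by −0.30 in the Runx2 line (adjusted p = 0.0817). The Runx3 call ended without vector replicate 2 (adjusted p = 0.0651) or Runx3 replicate 2 (adjusted p = 0.0742). In the average of the 3 lines it fell by 0.25 (adjusted p = 0.0458), and 7 of the 8 left-out arrays, all but Runx3 replicate 1, ended that call, at adjusted p-values of 0.0650 to 0.326. Any of the 6 RUNX1-ER and 4-OHT vector arrays left out ended it too. Centring each array on its median gave an adjusted p of 0.0515. Cd151, a tetraspanin that associates with laminin-binding integrins, ranged from 9.05 to 9.30 log2 units and was called in no comparison.

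The 14 members that were never called and reached 5 log2 units in some group differed by −0.33 to 0.17 in the 3 lines and by −0.32 to 0.30 on RUNX1-ER induction. The 11 dim ones differed by −0.36 to 0.31 and −0.13 to 0.16. With 2 arrays a group these ranges do not show that the genes were unaffected.

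**Figure D4:**
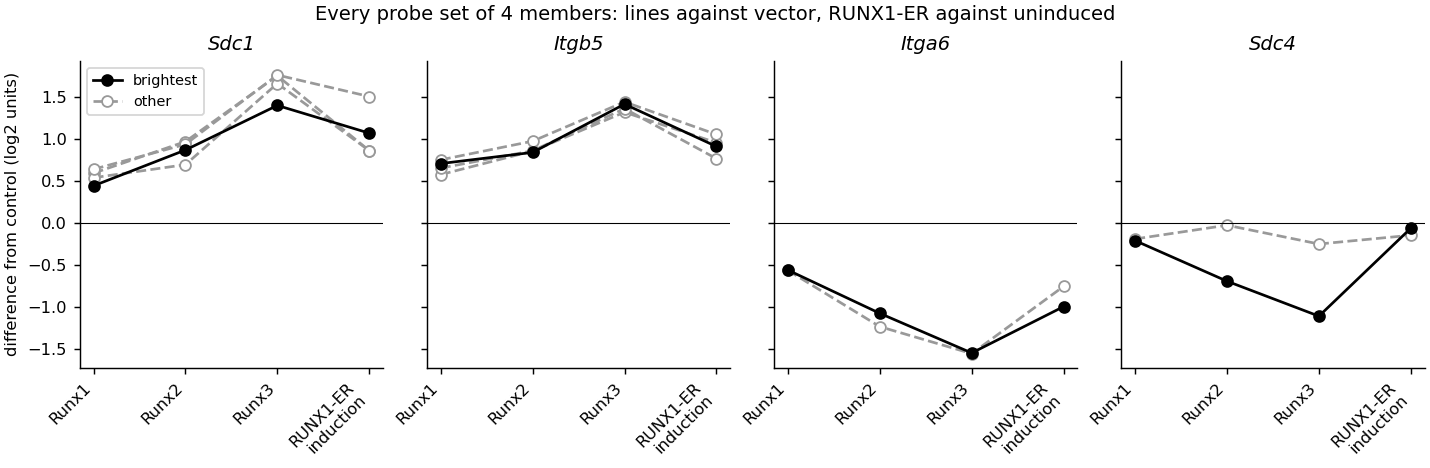
Differences in log2 units (y axis) of every probe set of Sdc1, Itgb5, Itga6 and Sdc4 in the 3 mouse lines against vector and on RUNX1-ER induction against uninduced (x axis); filled points are the brightest probe set, open points the others, and lines only join the values of a probe set. All probe sets of Sdc1, Itgb5 and Itga6 lie on the same side of 0, and those of Sdc4 part in the Runx3 line, at −1.11 and −0.25.

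RUNX1-ER induction gave a second view of the same genes within 24 h, in cells whose arrays are separate from the constitutive lines. On induction, Sdc1 and Itgb5 rose and Itga6 fell, 8.57% of the members against 1.92% of all genes. Sdc1 read 8.28 and 8.31 uninduced and 9.33 and 9.39 induced, a rise of 1.07 log2 units (2.10-fold; SE 0.09; limma adjusted p = 4.66e-05). Itgb5 read 7.71 and 7.89 uninduced and 8.77 and 8.65 induced, a rise of 0.91 (SE 0.12; adjusted p = 0.00121). In neither gene did the groups overlap, and every alternative kept both calls. Itga6 read 7.88 and 7.95 uninduced and 7.18 and 6.67 induced, a fall of 0.99 (SE 0.16; adjusted p = 0.00481). The Itga6 call ended without uninduced replicate 2 (adjusted p = 0.0594) or induced replicate 2 (−0.74; adjusted p = 0.0618). All 3 other Sdc1 probe sets, all 3 of Itgb5 and the other Itga6 probe set were called in the same direction on induction.

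The other members called in the Runx3 line did not pass on induction. Sdc4 read 6.67 on both uninduced arrays and 6.70 and 6.51 on the induced ones, a difference of −0.06 (limma adjusted p = 0.955). Against vector cells with 4-OHT, which read 7.38 and 7.22, the induced cells differed by −0.69 in Sdc4, which was not called. That difference passed when dim genes were left out of the test (adjusted p = 0.0441) and with the trended and robust variance prior (adjusted p = 0.0163). Sdc2 read 8.37 and 7.90 uninduced and 8.67 and 8.54 induced, a difference of 0.47 (adjusted p = 0.108) and of the opposite sign to that in the Runx3 line. Without uninduced replicate 1 Sdc2 was called higher on induction (0.71; adjusted p = 0.0123), as it was with the trended and robust variance prior (adjusted p = 0.0118). Cav1 read 11.77 and 11.82 uninduced and 11.72 and 11.69 induced (−0.09; adjusted p = 0.758). Zyx read 9.22 and 9.46 against 9.19 and 9.10, Itga3 4.95 and 4.84 against 5.19 and 5.12, and Itgb8 4.11 and 3.45 against 3.63 and 3.20. The differences between the responses of the Runx3 line and the inducible line were not tested.

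In vector cells 4-OHT itself called no member, and 0% of all genes. No member reached even an unadjusted p under 0.05 in limma, and the count stayed 0 under every alternative. The 4-OHT vector arrays read 8.26 and 8.12 for Sdc1, 7.88 and 7.54 for Itgb5, and 8.02 and 7.62 for Itga6. For Itgb5 and Itga6 the vector values lay inside these pairs, and for Sdc1 both were lower than vector. Uninduced RUNX1-ER cells also had no called member against vector, with 0.0440% of all genes called. 1 member had an unadjusted p under 0.05, and the count of calls was 0 under every alternative. Beyond the effect of 4-OHT on vector cells, induction called 2 members higher (5.71%, against 0.605% of all genes). Sdc1 exceeded it by 1.25 log2 units (SE 0.13; limma adjusted p = 0.000637), which every alternative kept. Itgb5 exceeded it by 1.03 (SE 0.17; adjusted p = 0.0119), a call that ended without uninduced replicate 1 (adjusted p = 0.0552), induced replicate 1 (adjusted p = 0.0650), vector replicate 1 (adjusted p = 0.0585) or vector replicate 2 (adjusted p = 0.0648). Itga6 differed by −0.996 (adjusted p = 0.0746) and passed only under some alternatives, among them the mean of probe sets (adjusted p = 0.0333). Against vector cells with 4-OHT, the induced cells had Sdc1 higher by 1.17 and Itgb5 by 1.00 and Itga6 lower by 0.90, 8.57% of the members against 4.16% of all genes. Without induced replicate 2 the Itga6 call was lost (adjusted p = 0.0661).

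The 3 mouse lines were then set against each other. Between the Runx3 and Runx1 lines 6 members differed, 17.1% against 6.52% of all genes. In the Runx3 line Sdc1 was higher by 0.95 log2 units (SE 0.09; limma adjusted p = 3.87e-05) and Itgb5 by 0.71 (adjusted p = 0.00248), and the difference of Itga6 was −0.98 (adjusted p = 0.00174). All 3 held under every alternative. Sdc4 differed by −0.90 (adjusted p = 0.0150), which ended without Runx1 replicate 1 (−0.56; adjusted p = 0.155) or Runx3 replicate 1 (adjusted p = 0.117), and with the mean of probe sets (−0.48; adjusted p = 0.0821). The dimmer Sdc4 probe set differed by −0.06. Cav1 differed by −0.32 (adjusted p = 0.0299), which any of 4 left-out arrays ended, at an adjusted p of 0.147 (Runx1 replicate 1), 0.109 (Runx1 replicate 2), 0.0571 (Runx3 replicate 1) and 0.208 (Runx3 replicate 2). Itga9, a dim chain that binds tenascin C and VCAM-1, differed by −0.52 (adjusted p = 0.0498). Its call ended without Runx1 replicate 2 (adjusted p = 0.360), Runx3 replicate 1 (adjusted p = 0.160) or Runx3 replicate 2 (adjusted p = 0.192), with the mean of probe sets (−0.16; adjusted p = 0.438), and without any RUNX1-ER or ethanol vector array. Neither of its 2 other probe sets was called.

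Between the Runx3 and Runx2 lines Sdc1 and Itgb5 differed, 5.71% of the members against 3.76% of all genes. Sdc1 was higher in the Runx3 line by 0.53 log2 units (limma adjusted p = 0.00729), a call lost without Runx2 replicate 1 (adjusted p = 0.0743) or Runx3 replicate 2 (adjusted p = 0.0750). Itgb5 was higher by 0.57 (adjusted p = 0.0179), lost with any of the 4 arrays left out, at an adjusted p of 0.0547 (Runx2 replicate 1), 0.0939 (Runx2 replicate 2), 0.0744 (Runx3 replicate 1) and 0.113 (Runx3 replicate 2). Between the Runx2 and Runx1 lines Sdc1 alone was called, 2.86% of the members against 1.50% of all genes. It was higher in the Runx2 line by 0.43 log2 units (adjusted p = 0.0420), and none of its 3 other probe sets was called. The call ended with the mean of probe sets (adjusted p = 0.196) and without Runx1 replicate 1 (adjusted p = 0.192), Runx1 replicate 2 (adjusted p = 0.209) or Runx2 replicate 2 (adjusted p = 0.180). It also ended without any 1 of 8 arrays outside the comparison (vector, RUNX1-ER and Runx3). For Itgb5 the Runx2 and Runx1 lines differed by 0.13 (adjusted p = 0.759). The amount of each Runx protein was not measured, so the identity of the factor and its level cannot be told apart in these contrasts.

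The constitutive human RUNX1 line has 1 array and no replicate check. It read 10.002 for Sdc1, the highest of all 15 arrays, and 6.16 for Itga6, the lowest. It read 9.04 for Itgb5, above the Runx1 and Runx2 arrays and below both Runx3 arrays. The differences from the vector mean were 1.63, −1.66 and 1.22 log2 units. These 3 members were the ones of 35 that differed at least 2-fold, a size reached by 1.1% of all genes. Sdc4 read 6.69, 0.29 below the vector mean and above the Runx2 and Runx3 arrays. Cav1 read 11.47, inside the Runx3 pair. Tns1, which encodes tensin 1, a linker of integrin tails to actin, read 6.16 on this array and 6.74 to 7.15 on the other 14. The human array was also the highest for Itga8, Itgb3 and Ilk.

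Genes that work with the set were taken from lists of further focal adhesion genes (adhesome), integrin ligands and membrane partners. Among all genes with a mean of at least 5 log2 units 25.8% were called in the Runx3 line. The shares of the lists among such genes are not given here. Of 40 measured adhesome genes 1 was higher in the Runx1 line (2.5%, against 1.70% of all genes). In the Runx2 line 2 were higher (5%, against 2.57% of all genes). In the Runx3 line 4 were higher and 2 lower (15%, against 9.37% of all genes). Enah, an actin filament elongation factor, rose by 0.91 log2 units in the Runx3 line (limma adjusted p = 1.81e-05). Tns3, a tensin, rose by 0.49 (adjusted p = 0.00355) and Arhgef7, an exchange factor for Rac and Cdc42, by 0.35 (adjusted p = 0.0413), while Git2, the partner of Arhgef7, fell by 0.58 (adjusted p = 0.00219). Rock1, a kinase that raises actomyosin tension, fell by 0.51 (adjusted p = 0.00690), which was lost without vector replicate 2 (adjusted p = 0.0853) or Runx3 replicate 1 (adjusted p = 0.0558). Averaging probe sets ended the calls of Tns3 (0.18; adjusted p = 0.363), Git2 (−0.19; adjusted p = 0.145) and Arhgef7 (0.19; adjusted p = 0.144). The Arhgef7 call also ended without vector replicate 1 (adjusted p = 0.265), vector replicate 2 (adjusted p = 0.0896), Runx3 replicate 1 (adjusted p = 0.0795) or Runx3 replicate 2 (adjusted p = 0.238). With any array of the Runx3 comparison left out fewer adhesome genes were called, and the share of all genes called was lower too.

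Of 28 measured integrin ligands, 2 were higher in the Runx1 line (7.14%; 1.70% of all genes called) and 1 in the Runx2 line (3.57%; 2.57% of all genes). In the Runx3 line 4 were higher and 3 lower (25%; 9.37% of all genes). Tenascin C (Tnc), a matrix protein and the ligand called in the Runx2 line, was up by 1.78 log2 units there (limma adjusted p = 6.91e-06). It differed by −0.52 in the Runx1 line, not called, and was up by 2.10 in the Runx3 line (adjusted p = 4.17e-07). A dimmer Tnc probe set differed by only −0.05 in the Runx2 line and −0.01 in the Runx3 line. Postn, periostin, which alpha v integrins bind, rose by 1.22 (adjusted p = 0.000402). Ccn2, a matricellular ligand, rose by 1.19 (adjusted p = 6.98e-05) and by 1.07 in the Runx1 line (adjusted p = 0.000818). Lamc1, the gamma 1 chain of laminins, fell by 0.92 in the Runx3 line (adjusted p = 6.31e-05), with −0.07 for its other probe set. Vcam1, a ligand of alpha 4 integrins, fell by 0.78 (adjusted p = 0.000519). Thbs1, thrombospondin 1, fell by 0.70 (adjusted p = 0.0271), a call that ended without vector replicate 1 (−0.44; adjusted p = 0.281), Runx3 replicate 1 (adjusted p = 0.105) or Runx3 replicate 2 (adjusted p = 0.127). It also ended with the mean of probe sets (adjusted p = 0.0805) and with the 4-OHT vector arrays as controls (−0.53; adjusted p = 0.0826). On RUNX1-ER induction Vcam1 was the only ligand called (3.57%, against 1.92% of all genes). It fell by 0.50 (limma adjusted p = 0.0379), and each of the 4 left-out arrays ended that call.

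Of 23 measured membrane partners, tetraspanins, caveolae proteins, glypicans, galectins and others, 15 were called in the Runx3 line, 3 higher and 12 lower (65.2%; 9.37% of all genes called). Their median difference was −0.32 log2 units, against 0.00 over all genes. In the Runx1 line 1 was called (1.70% of all genes), and in the Runx2 line 2 (2.57% of all genes). Cd47, a partner of alpha v beta 3 integrin, fell by 0.83 in the Runx3 line (limma adjusted p = 3.86e-05) and by 0.66 in the Runx2 line (adjusted p = 0.000853). Its 4 other probe sets ranged from −1.23 to 0.12 in the Runx3 line, and 2 were called lower. In the Runx2 line they ranged from −0.86 to 0.26 with 1 called lower, and the mean of probe sets ended that call. Cavin2, a coat protein of caveolae like Cav1, fell by 0.81 (adjusted p = 0.00503), which was lost without Runx3 replicate 2 (adjusted p = 0.0689). Unlike this fall in the Runx3 line, Cavin2 differed by 0.61 in the Runx1 line (limma adjusted p = 0.0888). Its 2 other probe sets were called higher in the Runx1 line, at 0.69 and 0.71. Cd82, a tetraspanin, fell by 0.71 in the Runx3 line (adjusted p = 0.00232), with 0.11 for its other probe set. Gpc1, a glypican that carries heparan sulfate as the syndecans do, was the partner called in the Runx1 line. It rose there by 0.80 (limma adjusted p = 0.0136), a call lost without vector replicate 1, vector replicate 2 or Runx1 replicate 2. In the Runx3 line it rose by 0.82 (adjusted p = 0.00315). Plaur, the urokinase receptor, rose by 0.82 (adjusted p = 0.000106). On RUNX1-ER induction 3 partners were called, 2 higher and 1 lower (13%, against 1.92% of all genes). Tspan4, a tetraspanin, rose by 0.76 there (limma adjusted p = 0.000394) and Plaur by 0.42 (adjusted p = 0.0479), and Cd47 fell by 0.45 (adjusted p = 0.0190). Each of the 4 left-out arrays ended the calls of Plaur and Cd47 on induction. Tspan4 also rose by 0.40 in the Runx2 line (adjusted p = 0.0257), a call that each of the 4 left-out arrays ended. In the Runx3 line it rose by 0.73 (adjusted p = 0.000101). Without Runx3 replicate 2 or vector replicate 2 fewer partners were called in the Runx3 line, and the share of all genes called was lower too.

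**Figure D5:**
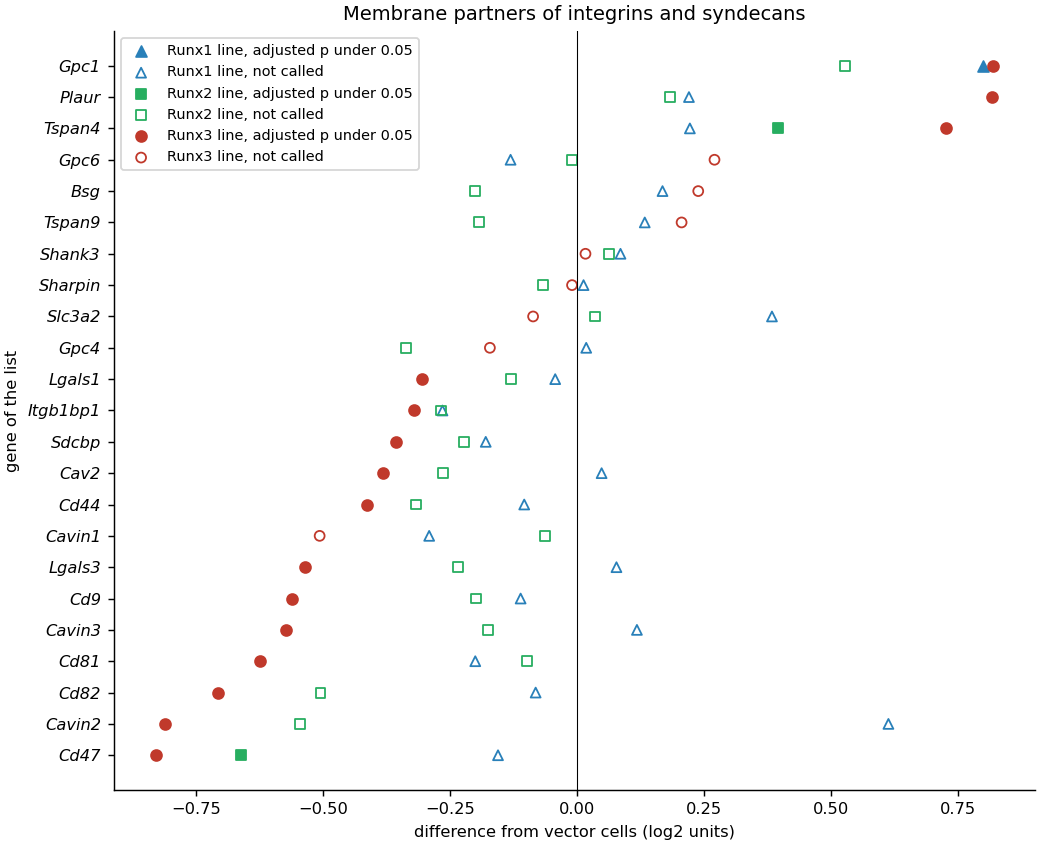
Differences from vector cells in log2 units (x axis) of the 23 measured membrane partner genes (y axis) in the Runx1 (triangles), Runx2 (squares) and Runx3 (circles) lines; filled symbols passed an adjusted p of 0.05. Most filled symbols are Runx3 circles, 12 to the left of 0 and 3 to the right, and all 3 lines share the same vector arrays.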

How the data were processed

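Values were the deposited log2 intensities of the series matrix. Per the labels' protocols, raw data came from GCOS and the authors normalised them by RMA with the Bioconductor affy module (versions: not given in the sources used here). That method removes background and imposes one intensity distribution on all arrays, which compresses differences of dim probe sets and hides any global shift. The number of arrays limits the precision.

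Of 45101 probe sets, 64 controls were left out. The platform annotation gave 1 symbol to 34945, several to 932 and none to 9160. The brightest stood for each of 18193 genes. limma 3.58.1 (R 4.3.3; lmFit and eBayes) fitted 1 mean per group over 15 arrays (7 residual degrees of freedom), with Benjamini-Hochberg adjustment over all genes at 0.05. Further probe sets of a gene were tested in a separate limma fit over 45037 probe sets. The script was tested on simulated data. Replicate numbers did not pair arrays: over 21 group pairs the correlation of deviations ran from −0.12 to 0.12 and 1 exceeded 0.1. Promoter letters came from RefSeq (GRCm38.p6). The members, lists and tests were chosen with earlier results of these data known. Members called against vector or on induction are given with the array values of the groups whose comparison called them, and not always of every group. Others are given by range, with values where a group mean reached 8 or another comparison called them. Up to 3 genes each way are named per further list. Alternatives were the mean of probe sets, a minimum mean of 5, a replicate block, a trended and robust variance prior, median centring, 4-OHT controls, and leaving out each array.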

Additional observations from a re-analysis of the deposited data

Results flagged for a closer look

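Differences between lines, or between responses to 4-OHT, that passed limma's test of the difference itself (Benjamini-Hochberg adjusted over all genes) are gathered here. The response of RUNX1-ER cells to 4-OHT exceeded that of vector cells by 1.25 log2 units for Sdc1 and by 1.03 for Itgb5. Between the Runx2 and Runx1 lines Sdc1 differed by 0.43. Between the Runx3 and Runx1 lines Sdc1 differed by 0.95, Itgb5 by 0.71, Cav1 by −0.32, Itga9 by −0.52, Sdc4 by −0.90 and Itga6 by −0.98. Between the Runx3 and Runx2 lines Itgb5 differed by 0.57 and Sdc1 by 0.53. No group held the 4 arrays that the test for an outlying sample needs.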

How the results depend on the processing

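Over 36 calls of single members, 369 alternative values were computed. All kept their direction, 302 kept the call, 67 lost it, and 18 calls held throughout. The replicate block, the variance prior and the minimum mean leave the difference itself unchanged, so those values could not reverse direction. Counts of called members moved by more than 1.5 times as follows. A trended and robust variance prior gave 5 in the Runx2 line (3 as reported), 5 on RUNX1-ER induction (3), 7 in induced cells against vector with 4-OHT (3), 3 between Runx2 and Runx1 (1), 10 between Runx3 and Runx1 (6), 4 between Runx3 and Runx2 (2) and 10 for the adhesome list in the Runx3 line (6). Under that prior the share of all genes called rose as well. It went from 2.57% to 4.23% in the Runx2 line, from 1.92% to 3.53% on induction and from 6.52% to 8.97% between Runx3 and Runx1. In induced cells against vector with 4-OHT it went from 4.16% to 6.63%, and between Runx2 and Runx1 from 1.50% to 2.62%. Between Runx3 and Runx2 it went from 3.76% to 5.53%, and in the Runx3 line from 9.37% to 12.2%. Controls with 4-OHT gave 5 in the Runx2 line, with 3.15% of all genes called. Testing genes with a mean of at least 5 gave 6 in induced cells against vector with 4-OHT, with 14% of all such genes called. The replicate block gave 0 between Runx2 and Runx1. It left 2, 3 and 9 calls in the Runx1, Runx2 and Runx3 lines, and 4 of 5 in their average, where Cav1 reached 0.0605. Sdc1 between Runx2 and Runx1 reached 0.0560 and Itga9 between Runx3 and Runx1 0.0643 under it. With 1 of the arrays compared left out the counts ranged from 0 to 1 in the Runx1 line, 3 to 3 in the Runx2 line, 5 to 7 in the Runx3 line, 3 to 4 in the average, 2 to 4 on induction, 1 to 3 beyond 4-OHT, 2 to 4 in induced cells against vector with 4-OHT, 0 to 1 between Runx2 and Runx1, 4 to 5 between Runx3 and Runx1, and 0 to 1 between Runx3 and Runx2. These counts include members that the full data did not call. Without Runx3 replicate 1, Itgb4 entered in the Runx3 line (0.56 log2 units) and between Runx3 and Runx1 (0.73). Between Runx3 and Runx1 Itgb2 entered without Runx1 replicate 1 (−0.84) or Runx3 replicate 2 (−0.88). Sdc2 entered on induction, Itga6 beyond 4-OHT and Lims1 in induced cells against vector with 4-OHT. Leaving out an array of another group, chosen as an alternative after seeing the data, changes only the shared spread. It gave 3 to 4 in the Runx2 line, 8 to 10 in the Runx3 line, 4 in the average, 3 to 4 in induced cells against vector with 4-OHT, 0 to 1 between Runx2 and Runx1, 5 to 8 between Runx3 and Runx1, and the reported counts elsewhere. The lists in the Runx3 line ranged from 3 to 4 (adhesome), 6 to 8 (ligands) and 9 to 11 (membrane partners). A group left with 1 array is assumed to vary like the others. The share of all genes called was also lower in most runs with 1 of the arrays compared left out. The causes were not tested. Signal near background limits the 13 dim members.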
